A study of Homo sapiens with 6 samples.

Results

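The core kinase cascade of the Hippo pathway was followed at the transcript level in the colorectal cancer cell line SW480, established from a human tumor, after knockdown of PCYT2. Its 10 members were chosen by name: the MST kinases STK4 (MST1) and STK3 (MST2) with their scaffold SAV1, the LATS kinases LATS1 and LATS2 with their adaptors MOB1A and MOB1B, and the upstream regulators NF2, WWC1 and TAOK1. All 10 were listed in every library, each under 1 Ensembl identifier, among 19746 genes in all, and all 10 were among the 12756 genes with a mean of at least 0.5 FPKM that were tested. FPKM counts sequenced fragments per kilobase of transcript relative to all fragments of the library. Levels can thus be compared between genes, and between libraries within the limits of scaling and GC content given below.

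The study asked what the loss of PCYT2, the enzyme that limits phosphatidylethanolamine synthesis by the ethanolamine route, does to colorectal cancer cells. RNA-Seq was performed on 3 groups of 2 libraries each. The shNT group carried a nontargeting hairpin, the shPcyt2-1 group a hairpin against PCYT2, and the shPcyt2-2 group another hairpin against PCYT2. All groups were SW480 cells without a further labeled treatment. In the study's general method, hairpins were delivered in a lentiviral pLKO.1 vector and infected cells were selected with puromycin. The knockdown lowers the target without deleting it. The labels do not say whether the libraries of a group came from separate cultures, so the p-values measure the spread between these libraries only, which may be technical.

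In the Hippo pathway, TAO kinases activate the MST kinases, which bind SAV1 and phosphorylate the LATS kinases together with their MOB1 adaptors. Merlin, the product of NF2, and KIBRA, the product of WWC1, gather the cascade at the plasma membrane. Active LATS kinases phosphorylate the coactivators YAP1 and TAZ, which are then kept out of the nucleus and degraded, and in the intestinal epithelium this restrains growth and regeneration. The cascade is regulated largely by phosphorylation and protein binding, and transcript levels do not report kinase activity.

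The target itself was lower in both knockdown groups. PCYT2 (ENSG00000185813, chromosome 17, 81900965 to 81911464 on the minus strand of GRCh38) was at 11.6 and 13.8 FPKM in the shNT libraries, 7.11 and 7.36 FPKM with shPcyt2-1, and 6.71 and 6.18 FPKM with shPcyt2-2. Neither knockdown group overlapped with shNT. In limma, with Benjamini-Hochberg adjustment over all tested genes, the log2 fold change was -0.73 for shPcyt2-1 (adjusted p = 0.00205) and -0.88 for shPcyt2-2 (adjusted p = 0.00261), and both passed in all 6 fits that left out 1 library.

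FPKM values are already scaled to library size, so their sums do not show the size of the libraries. The values of a library summed to between 396467 and 402612 FPKM, and between 18806 and 19209 identifiers were listed above 0. The reads per library are not given. The step between the values of the lowest genes gave a relative depth of 1 and 0.959 in shNT, 0.801 and 0.955 in shPcyt2-1, and 0.928 and 0.896 in shPcyt2-2, so that both shNT libraries were above all 4 knockdown libraries, the nearest by 0.959 against 0.955. Pearson's r of log2(FPKM + 1) over the tested genes was 0.993 to 0.995 between the libraries of a group.

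Markers of SW480 epithelium were abundant. The 6 genes EPCAM, KRT8, KRT18, KRT19, CDX2 and CDH1 were all listed, and they summed to 8172 and 8730 FPKM with shNT, 8392 and 8485 FPKM with shPcyt2-1, and 6212 and 6512 FPKM with shPcyt2-2. Nearly all of the sum came from the keratins KRT8, KRT18 and KRT19, and KRT8, the most abundant, was at 3602 and 3861 FPKM with shNT, 3540 and 3649 FPKM with shPcyt2-1, and 2734 and 2874 FPKM with shPcyt2-2. With shPcyt2-2 the 3 keratins fell, by 0.41, 0.45 and 0.44 on the log2 scale, and the other 3 markers did not pass (0.11 for EPCAM, -0.06 for CDX2 and 0.19 for CDH1). With shPcyt2-1, CDX2 fell by 0.65 on the log2 scale (limma adjusted p = 0.00138), with both libraries below both shNT libraries, and the other 5 did not pass. Of the defining markers of other cell types, 4 of 5 fibroblast genes (COL3A1 not listed), 4 of 5 leukocyte genes (summed 18.0 to 24.5 FPKM, nearly all of it CD68, with PTPRC not listed) and 4 of 4 endothelial genes (summed 0.513 to 0.769 FPKM) were listed. The fibroblast genes summed to 2.25 and 2.44 FPKM with shNT, 3.59 and 4.10 FPKM with shPcyt2-1, and 3.75 and 3.56 FPKM with shPcyt2-2, above both shNT libraries in all 4 knockdown libraries. Of them, LUM rose with shPcyt2-1 by 0.81 on the log2 scale (limma adjusted p = 0.00192), from 0.789 and 0.863 FPKM to 2.17 and 2.24 FPKM. COL1A1 did not pass with that hairpin (0.18, limma adjusted p = 0.272). PDGFRB, too low to be tested, was at 0.364 and 0.507 FPKM with shNT and lower with shPcyt2-1 (0.225 and 0.309 FPKM). With shPcyt2-2 PDGFRB was higher (0.795 and 0.739 FPKM), and neither LUM nor COL1A1 passed. The part of these genes in the values below was not tested. In bulk RNA, fewer cells of a type and less RNA per cell cannot be told apart.

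In control cells the members of the cascade differed widely in level, and MOB1A was 13.3 and 12.3 times as abundant as MOB1B in the shNT libraries. MOB1A, the main LATS adaptor by level, had the highest mean at 22.8 ± 2.35 FPKM (SD, n = 2), followed by STK4 at 15.1 ± 1.40, WWC1 at 11.0 ± 0.678 and SAV1 at 9.43 ± 0.162 FPKM (SD, n = 2 each). NF2 and TAOK1 came next, at 5.12 ± 0.385 and 4.79 ± 0.674 FPKM (SD, n = 2 each). LATS2 (3.18 ± 0.008 FPKM), STK3 (2.91 ± 0.622 FPKM) and LATS1 (2.80 ± 0.316 FPKM; SD, n = 2 each) followed. Both LATS2 libraries lay above both LATS1 libraries, and STK3, whose libraries spanned those of LATS1 and LATS2, could not be placed against them. The ranges of NF2 and TAOK1 overlapped as well, while all other neighbors were separate. MOB1B, the second adaptor of the LATS kinases, was the lowest member at 1.77 ± 0.088 FPKM (SD, n = 2). MOB1A stood at percentile 78.5 of all tested genes in shNT cells, STK4 at 69.7, and MOB1B at 19.0.

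Across the cascade some members were called higher in the knockdown groups and none was called lower, while for the others no difference was detectable in these libraries. With shPcyt2-1, 2 of the 10 members passed an adjusted p of 0.05 in limma, LATS1 and MOB1B, both higher, where 16.5% of all tested genes were called higher and 10.1% lower (26.7% in either direction). With shPcyt2-2, 4 of the 10 passed, STK4, LATS2, MOB1A and MOB1B, all higher, where 7.69% of all tested genes were called higher and 4.74% lower (12.4% in either direction). Only MOB1B passed with both hairpins, as did 3.09% of all tested genes in the upward direction and 1.29% in the downward direction. The median log2 fold change of the 10 members was 0.22 with shPcyt2-1, beside 0.07 for all tested genes, and 0.26 with shPcyt2-2, beside 0.04. After correction for GC content and length the members' medians were 0.13 and 0.15, and leaving out shPcyt2-2 replicate 1 or replicate 2 moved the median of that hairpin to 0.14 or 0.41. Without the filter on low values, 0 members passed in any comparison. Of all 19746 genes, 1831 were then called with shPcyt2-1, 124 with shPcyt2-2, 2430 between the hairpins and 7 in the pooled comparison. Both comparisons use the same shNT libraries, so they are not independent. Log2 fold changes are on the log2(FPKM + 1) scale throughout, which understates the change of low genes.

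**Figure D1:**
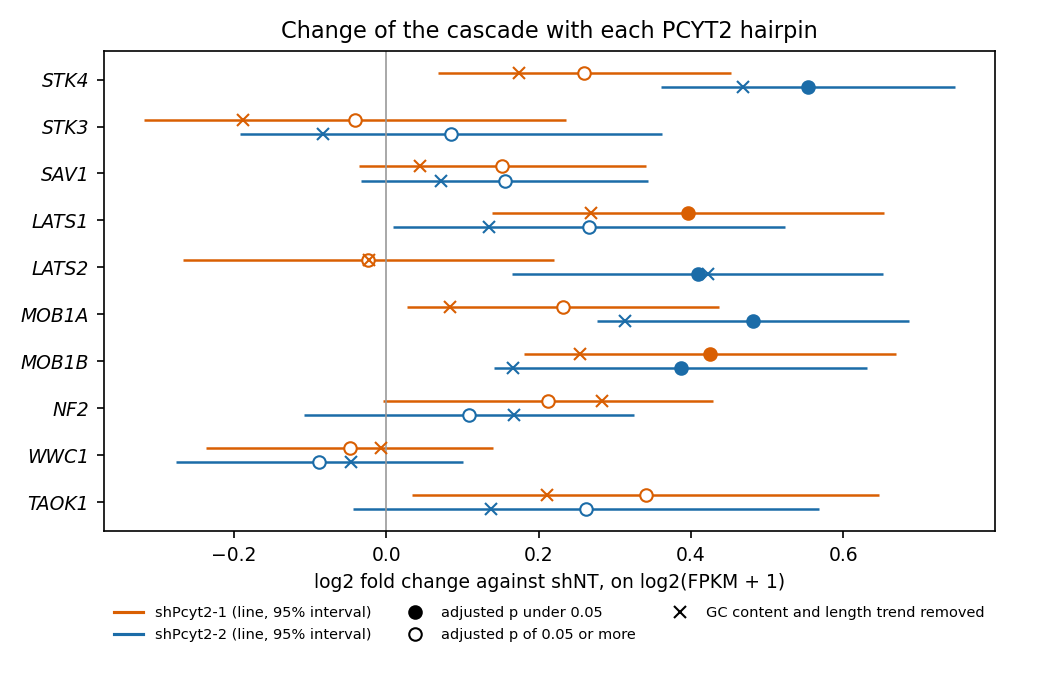
Log2 fold change of each member against shNT on the log2(FPKM + 1) scale, with 95% confidence intervals from limma, filled circles for an adjusted p under 0.05 and crosses for the value once each library was corrected for GC content and transcript length. LATS1 and MOB1B are filled for shPcyt2-1, and STK4, LATS2, MOB1A and MOB1B for shPcyt2-2.

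Of the MST kinases, STK4 passed with shPcyt2-2 and STK3 with neither hairpin. STK4 (ENSG00000101109, chromosome 20, 44966474 to 45079959, plus strand) encodes MST1, which phosphorylates the LATS kinases and MOB1. It was at 16.0 and 14.1 FPKM with shNT, 18.2 and 18.2 FPKM with shPcyt2-1, and 23.5 and 21.6 FPKM with shPcyt2-2. The 3 groups did not overlap, and the shPcyt2-2 libraries were the highest. STK4 rose with shPcyt2-2 by a log2 fold change of 0.55 (SE 0.085, 95% interval 0.36 to 0.75, limma adjusted p = 0.00748), a ratio of group means of 1.50. With shPcyt2-1 the value was 0.26 (SE 0.085, 95% interval 0.07 to 0.45, limma adjusted p = 0.0509), and it moved to 0.35 and passed without shNT replicate 1 (limma adjusted p = 0.0264) and to 0.17 without shNT replicate 2. Without shPcyt2-2 replicate 1 the STK4 change with shPcyt2-2 was 0.50 and its limma adjusted p was 0.0818, and it passed without any other single library.

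STK3 (ENSG00000104375, chromosome 8, 98371228 to 98942827, minus strand) encodes MST2, the paralog that shares the binding partners of MST1. It was at 3.35 and 2.47 FPKM with shNT, 2.79 and 2.76 FPKM with shPcyt2-1, and 3.08 and 3.16 FPKM with shPcyt2-2. The shNT libraries held both the highest and the lowest value, and every knockdown library lay between them. The log2 fold change was -0.04 with shPcyt2-1 (95% interval -0.32 to 0.24, limma adjusted p = 0.831) and 0.08 with shPcyt2-2 (95% interval -0.19 to 0.36, limma adjusted p = 0.674). The latter turned negative (-0.08) once the libraries were corrected for GC content and length. A change of up to about those limits in either direction was not detectable here.

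SAV1 (ENSG00000151748, chromosome 14, 50632058 to 50668331, minus strand) encodes the scaffold that holds the MST kinases in their active complex. Its levels were 9.54 and 9.32 FPKM with shNT, 10.4 and 10.8 FPKM with shPcyt2-1, and 11.1 and 10.2 FPKM with shPcyt2-2. Each knockdown library exceeded both shNT libraries, by a small margin. The log2 fold changes of 0.15 (95% interval -0.04 to 0.34, limma adjusted p = 0.201) and 0.16 (95% interval -0.03 to 0.34, limma adjusted p = 0.237) did not pass, and the latter was 0.10 without shPcyt2-2 replicate 1. After correction for GC content and length the changes were 0.04 with shPcyt2-1 and 0.07 with shPcyt2-2.

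Of the LATS kinases, which phosphorylate YAP1 and TAZ, LATS1 passed with shPcyt2-1 and LATS2 with shPcyt2-2. LATS1 (ENSG00000131023, chromosome 6, 149658153 to 149718256, minus strand) was at 3.02 and 2.57 FPKM with shNT, 3.87 and 4.10 FPKM with shPcyt2-1, and 3.89 and 3.25 FPKM with shPcyt2-2. The 4 knockdown libraries were above both shNT libraries, and the knockdown groups overlapped each other. LATS1 rose with shPcyt2-1 by 0.40 on the log2 scale (SE 0.114, 95% interval 0.14 to 0.65, limma adjusted p = 0.0329), a ratio of means of 1.43. With shPcyt2-2 it was at 0.27 (95% interval 0.01 to 0.52, limma adjusted p = 0.149), and at 0.16 without shPcyt2-2 replicate 1. The call with shPcyt2-1 was lost without shNT replicate 2 (0.31, limma adjusted p = 0.167), without shPcyt2-1 replicate 1 (0.43, limma adjusted p = 0.113) and without shPcyt2-1 replicate 2 (0.36, limma adjusted p = 0.145).

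LATS2 (ENSG00000150457, chromosome 13, 20973032 to 21061547, minus strand) was at 3.17 and 3.18 FPKM with shNT, 3.42 and 2.82 FPKM with shPcyt2-1, and 4.72 and 4.37 FPKM with shPcyt2-2. The shPcyt2-2 libraries stood above all other 4, and the shPcyt2-1 libraries lay on either side of shNT. LATS2 rose with shPcyt2-2 by 0.41 on the log2 scale (SE 0.108, 95% interval 0.17 to 0.65, limma adjusted p = 0.0406), a ratio of means of 1.43, and was at -0.02 with shPcyt2-1 (95% interval -0.27 to 0.22, limma adjusted p = 0.891). The call with shPcyt2-2 passed in 0 of the 6 fits that left out 1 library, where the adjusted p ranged from 0.0503 to 0.174 and the change from 0.36 to 0.45.

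LATS2 is known as a transcriptional target of YAP1 and its DNA-binding partners, the TEAD factors. Among the promoters in the RefSeq table (GRCh38.p14, 250 bases before to 50 after each start), 13 promoters of 9 members were held, and STK3 was not. The core TEAD letters GGAATG were searched on both strands. They occurred in 1 of these 13 promoters (7.69%), that of LATS2, and in 14.0% of all 35114 promoters of the same length, so a match was no more frequent among the members. The stretch is shown because it is the member promoter match that those letters gave, at chr13:21061560-21061589 on the minus strand, with the letters in capitals. They begin 9 bases after the RefSeq start site.
LATS2: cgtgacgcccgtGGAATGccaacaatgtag
A match of 6 letters is a description of the sequence and was not tested for binding.

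MOB1A and MOB1B encode near-identical adaptors that bind the LATS kinases and help activate them. MOB1A (ENSG00000114978, chromosome 2, 74152528 to 74178898, minus strand) was at 24.4 and 21.1 FPKM with shNT, 27.4 and 26.3 FPKM with shPcyt2-1, and 34.1 and 30.2 FPKM with shPcyt2-2. The 3 groups did not overlap and were ordered as for STK4. MOB1A rose with shPcyt2-2 by 0.48 on the log2 scale (SE 0.091, 95% interval 0.28 to 0.69, limma adjusted p = 0.0144), a ratio of means of 1.41. With shPcyt2-1 it was at 0.23 (95% interval 0.03 to 0.44, limma adjusted p = 0.0876), and it moved to 0.33 and passed without shNT replicate 1 (limma adjusted p = 0.0356) and to 0.13 without shNT replicate 2. The call with shPcyt2-2 was lost without shNT replicate 2 (0.38, limma adjusted p = 0.0665) and without shPcyt2-2 replicate 1 (0.40, limma adjusted p = 0.113).

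MOB1B (ENSG00000173542, chromosome 4, 70902326 to 71022449, plus strand) was at 1.84 and 1.71 FPKM with shNT, 2.68 and 2.76 FPKM with shPcyt2-1, and 2.87 and 2.40 FPKM with shPcyt2-2. The knockdown libraries lay well above both shNT libraries and the knockdown groups overlapped each other. MOB1B rose with shPcyt2-1 by 0.42 on the log2 scale (SE 0.108, 95% interval 0.18 to 0.67, limma adjusted p = 0.0213) and with shPcyt2-2 by 0.39 (SE 0.108, 95% interval 0.14 to 0.63, limma adjusted p = 0.0485). The ratios of means were 1.54 and 1.48. With shPcyt2-1 the call held in 3 of 6 fits that left out 1 library and was lost without shNT replicate 2 or without either shPcyt2-1 library, and with shPcyt2-2 it held in 0 of 6 (limma adjusted p 0.0595 to 0.2). It was also lost with only the shNT and shPcyt2-2 libraries in the fit (limma adjusted p = 0.0774). Because MOB1A and MOB1B are similar in sequence, reads could be split between them, and the way the values were counted is not given in the sources used here.

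STK4 and MOB1A followed each other most closely of all pairs of members, with Pearson's r of 0.99 over the 6 libraries. The genomic sequence directly before their annotated starts is shown so that the regions can be compared (RefSeq, GRCh38.p14). Letters in capitals mark the ETS letters CCGGAA, the E-box CACGTG, the GC box GGGCGG and the NF-Y letters CCAAT, on either strand. The STK4 stretch is chr20:44966262-44966473 (plus strand, 212 bases, 70.8% GC) and the MOB1A stretch is chr2:74178899-74179129 (minus strand, 231 bases, 63.6% GC).
STK4: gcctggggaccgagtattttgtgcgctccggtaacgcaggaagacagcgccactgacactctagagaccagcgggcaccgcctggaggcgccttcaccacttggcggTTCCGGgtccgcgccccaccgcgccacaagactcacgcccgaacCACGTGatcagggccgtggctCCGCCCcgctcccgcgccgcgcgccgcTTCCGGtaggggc
MOB1A: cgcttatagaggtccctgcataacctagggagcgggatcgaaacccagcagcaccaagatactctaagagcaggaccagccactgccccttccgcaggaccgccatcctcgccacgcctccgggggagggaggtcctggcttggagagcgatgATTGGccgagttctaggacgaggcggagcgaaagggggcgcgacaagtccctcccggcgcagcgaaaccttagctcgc
The STK4 stretch held 2 ETS matches, 1 E-box and 1 GC box, and the MOB1A stretch held 1 NF-Y match. A GC box was also present in the promoter of another RefSeq start of MOB1A, which is not shown. Over the 250 bases before the start, 14.5% of all promoters in the table held the ETS letters, 6.35% the E-box, 42.6% the GC box and 32.0% the NF-Y letters.

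In the values as deposited, fitted by group alone, the upstream regulators did not pass with either hairpin. With shPcyt2-1, NF2 passed after correction for GC content and length, and TAOK1 passed with the replicate number added to the fit. NF2 (ENSG00000186575, chromosome 22, 29603556 to 29698598, plus strand) encodes merlin, which recruits the LATS kinases to the membrane. It was at 4.84 and 5.39 FPKM with shNT, 5.83 and 6.33 FPKM with shPcyt2-1, and 5.52 and 5.65 FPKM with shPcyt2-2. Each knockdown library exceeded both shNT libraries, but the log2 fold changes of 0.21 (95% interval -0.005 to 0.43, limma adjusted p = 0.129) and 0.11 (95% interval -0.11 to 0.33, limma adjusted p = 0.475) did not pass. The latter was 0.04 without shNT replicate 1 and 0.17 without shNT replicate 2.

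WWC1 (ENSG00000113645, chromosome 5, 168291651 to 168472303, plus strand) encodes KIBRA, a scaffold that binds merlin. It was at 10.5 and 11.5 FPKM with shNT, 10.7 and 10.4 FPKM with shPcyt2-1, and 10.5 and 10.1 FPKM with shPcyt2-2. The shPcyt2-1 libraries overlapped with shNT, and both shPcyt2-2 libraries lay below both shNT libraries, the nearest by 10.47 against 10.50 FPKM. Its log2 fold changes were -0.05 (95% interval -0.24 to 0.14, limma adjusted p = 0.697) and -0.09 (95% interval -0.28 to 0.10, limma adjusted p = 0.507). WWC1 was the member with the lowest log2 fold change in both comparisons in the values as deposited. After correction for GC content and length, STK3 was lower with shPcyt2-1 (-0.188 beside -0.007 for WWC1) and with shPcyt2-2 (-0.082 beside -0.046).

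TAOK1 (ENSG00000160551, chromosome 17, 29390464 to 29551904, plus strand) encodes a kinase that activates the MST kinases. It was at 5.27 and 4.32 FPKM with shNT, 6.52 and 6.11 FPKM with shPcyt2-1, and 6.86 and 5.10 FPKM with shPcyt2-2. The shPcyt2-1 libraries were above both shNT libraries, while 1 of the shPcyt2-2 libraries lay between them. The log2 fold changes of 0.34 (95% interval 0.03 to 0.65, limma adjusted p = 0.0923) and 0.26 (95% interval -0.04 to 0.57, limma adjusted p = 0.221) did not pass. Without shNT replicate 2 they were 0.22 and 0.14, and with shPcyt2-2 the value was 0.08 without shPcyt2-2 replicate 1 and 0.44 without the other library of that hairpin.

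With both hairpins joined into 1 knockdown group of 4 libraries, no member passed against shNT. In that limma fit 0.00784% of all tested genes were called, which was the single gene RGPD6 (named after its values were seen, and nearly identical to other RGPD genes), and 4 members, STK4, LATS1, MOB1A and MOB1B, had an unadjusted p under 0.05, as did 16.7% of all tested genes. Their log2 fold changes were 0.41, 0.33, 0.36 and 0.41, with limma adjusted p values of 0.204, 0.227, 0.222 and 0.168 in that order. PCYT2 did not pass in this fit either (-0.80, limma adjusted p = 0.115). With the spread estimated from 3 groups and the mean of the hairpins compared with shNT, the same 4 members passed, with limma adjusted p values of 0.01095, 0.0497, 0.0201 and 0.0234, where 16.8% of all tested genes were called in either direction. For 6 members, STK4, SAV1, LATS1, MOB1A, MOB1B and NF2, all 4 knockdown libraries lay above both shNT libraries, as they did for 20.7% of all tested genes. For 0 members did all 4 lie below, as they did for 9.48% of all tested genes.

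The hairpins differed from each other for STK4 and LATS2. In the limma comparison of shPcyt2-2 with shPcyt2-1, STK4 was higher by 0.29 on the log2 scale (SE 0.085, 95% interval 0.10 to 0.49, adjusted p = 0.0323) and LATS2 by 0.43 (SE 0.108, 95% interval 0.19 to 0.68, adjusted p = 0.0175). These were 2 of 10 members, where 12.9% of all tested genes were called higher and 14.2% lower (27.1% in either direction). MOB1A was at 0.25 (95% interval 0.04 to 0.45, limma adjusted p = 0.0703). LATS1, which passed with shPcyt2-1 alone, differed by -0.13 (95% interval -0.39 to 0.13, limma adjusted p = 0.431), so no difference between the hairpins was detectable for it. The median over the 10 members was -0.02, as it was over all tested genes. The STK4 difference was lost without either shPcyt2-1 library or either shPcyt2-2 library (limma adjusted p up to 0.153) and without the variance trend (limma adjusted p = 0.0532), and the LATS2 difference was lost without shPcyt2-1 replicate 2, shPcyt2-2 replicate 1 or shPcyt2-2 replicate 2 (limma adjusted p up to 0.155). The keratins KRT8, KRT18 and KRT19 were also lower, and the epithelial transcription factor gene CDX2 higher, with shPcyt2-2 than with shPcyt2-1 (log2 differences of -0.36, -0.47, -0.50 and 0.60), and their part in these differences was not tested.

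Genes of low GC content were higher in the knockdown libraries as a class, and 5 of the 10 members fell in the class of lowest GC content. The tested genes with a known transcript were divided into 4 equal classes by the GC content of the longest transcript. The median log2 fold change with shPcyt2-1 was 0.20 in the class of lowest GC content, 0.12 and 0.04 in the next classes and -0.10 in the class of highest GC content. With shPcyt2-2 the medians were 0.17, 0.09, -0.004 and -0.09. The class of lowest GC content (29.7% to 42.5%) held 5 members, MOB1B (34.3%), MOB1A (37.3%), STK3 (37.4%), TAOK1 (39.5%) and LATS1 (39.7%), and in it 24.2% of all tested genes were called higher with shPcyt2-1 and 13.3% with shPcyt2-2. SAV1 (42.8%) and STK4 (43.4%) fell in the next class, LATS2 (51.8%), WWC1 (54.4%) and NF2 (56.0%) in the third, and 0 members in the class of highest GC content. The shNT libraries differed from each other in the same way, with a median log2 difference of replicate 1 against replicate 2 of 0.13 in the lowest class and -0.13 in the highest.

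Once each library was corrected for its GC content and length trend, the calls with shPcyt2-2 held for STK4 (0.47, limma adjusted p = 0.00657), LATS2 (0.42, limma adjusted p = 0.0301) and MOB1A (0.31, limma adjusted p = 0.0166), while MOB1B was at 0.17 (limma adjusted p = 0.281). With shPcyt2-1, LATS1 was at 0.27 (limma adjusted p = 0.0537) and MOB1B at 0.25 (limma adjusted p = 0.0832), and NF2 passed at 0.28 (limma adjusted p = 0.0267). MOB1A was at 0.08 with shPcyt2-1 (limma adjusted p = 0.311), and LATS1 at 0.13 with shPcyt2-2 (limma adjusted p = 0.334). The differences between the hairpins were 0.29 for STK4 (limma adjusted p = 0.00941), 0.44 for LATS2 (limma adjusted p = 0.0105) and 0.23 for MOB1A (limma adjusted p = 0.0196). In this fit 26.9% of all tested genes were called with shPcyt2-1, 12.3% with shPcyt2-2 and 34.7% between the hairpins, in either direction. MOB1B, the member that passed with both hairpins in the values as deposited, thus passed with neither after this step. LATS2, with a GC content near the middle of all genes, was the member least moved by it with shPcyt2-2.

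The balance within paralog pairs was described as the share of the summed FPKM held by 1 gene. STK3 held 17.3% and 14.9% of the MST pair with shNT, 13.3% and 13.2% with shPcyt2-1, and 11.6% and 12.8% with shPcyt2-2. STK4 was thus the main MST kinase transcript in every library, and the share of STK3 was lower in all 4 knockdown libraries than in both shNT libraries. LATS1 held 48.8% and 44.7% of the LATS pair with shNT, 53.1% and 59.3% with shPcyt2-1, and 45.2% and 42.6% with shPcyt2-2. The LATS pair was near balance in control cells, with LATS1 the larger part in both shPcyt2-1 libraries and LATS2 in both shPcyt2-2 libraries. MOB1A held between 90.5% and 93.0% of the MOB1 pair in all 6 libraries. No test was made of these shares.

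**Figure D2:**
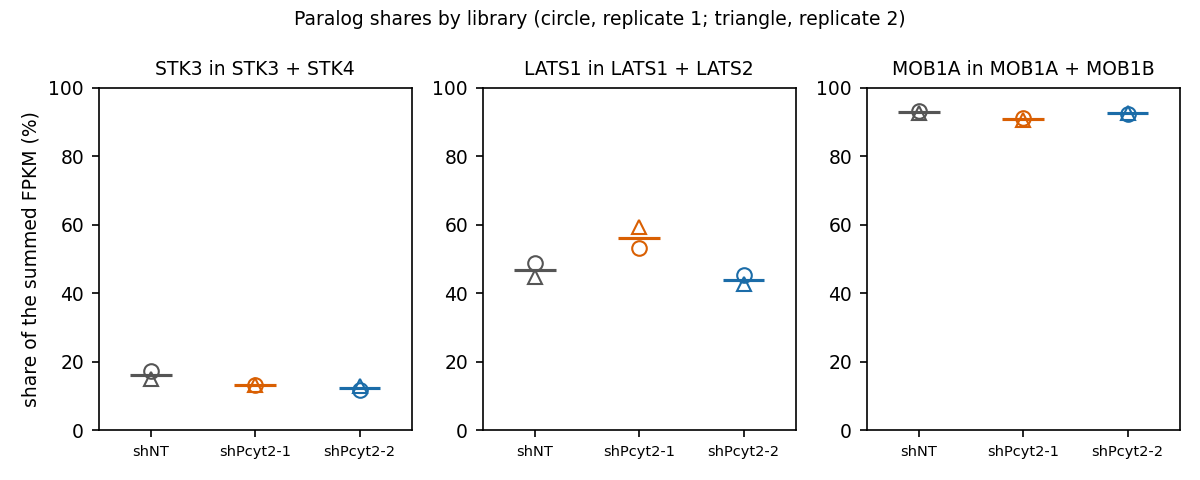
Share of the summed FPKM of each paralog pair held by its first gene in percent (vertical axis, 0 to 100) in each library, with bars for group means. STK3 lies between 11.6% and 17.3%, LATS1 between 42.6% and 59.3%, and MOB1A between 90.5% and 93.0%.

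As sums, the 10 members reached 82.0 and 75.6 FPKM with shNT, 91.8 and 90.7 FPKM with shPcyt2-1, and 106 and 96.0 FPKM with shPcyt2-2. The kinases of the core, STK3, STK4, LATS1 and LATS2, summed to 25.6 and 22.3 FPKM with shNT, 28.3 and 27.9 FPKM with shPcyt2-1, and 35.2 and 32.4 FPKM with shPcyt2-2. Their partners SAV1, MOB1A and MOB1B summed to 35.8 and 32.1, then 40.4 and 39.9, then 48.1 and 42.8 FPKM in the same order. In these 3 sums the groups did not overlap. The upstream regulators summed to 20.6 and 21.2 FPKM with shNT, 23.1 and 22.9 FPKM with shPcyt2-1, and 22.8 and 20.8 FPKM with shPcyt2-2, where the shPcyt2-1 libraries were the highest and shPcyt2-2 overlapped with shNT. MOB1A and STK4 made up most of the difference in the first 3 sums, so these follow the abundant members.

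Of the coactivators that the cascade acts on, YAP1 passed with shPcyt2-2 only and WWTR1 with neither hairpin. YAP1 rose with shPcyt2-2 by 0.37 on the log2 scale (limma adjusted p = 0.0268) and was at 0.13 with shPcyt2-1 (limma adjusted p = 0.269). WWTR1 was at -0.31 with shPcyt2-1 (limma adjusted p = 0.0689) and at -0.19 with shPcyt2-2 (limma adjusted p = 0.294). YAP1 was at 25.8 and 25.5 FPKM with shNT, 28.4 and 28.1 FPKM with shPcyt2-1, and 36.4 and 30.7 FPKM with shPcyt2-2, above both shNT libraries in all 4. WWTR1, the gene of TAZ, was at 3.36 and 3.45 FPKM with shNT, 2.60 and 2.50 FPKM with shPcyt2-1, and 3.22 and 2.55 FPKM with shPcyt2-2, below both shNT libraries in all 4. The sum of YAP1 and WWTR1, most of it YAP1, per unit of summed LATS1 and LATS2 was 4.72 and 5.02, then 4.25 and 4.42, then 4.60 and 4.36. It was lower in all 4 knockdown libraries than in both shNT libraries, and no test was made of it. The ratio was not corrected for GC content, and LATS1 fell in the class of lowest GC content.

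Members varied together to different degrees over the 6 libraries. The pair SAV1 and MOB1B had an r of 0.98 and the pair LATS1 and MOB1B an r of 0.95, while LATS1 and LATS2 had an r of 0.14. WWC1 was negatively related to all other members, with r between -0.78 and -0.18. These values describe 6 libraries that share the GC trend and their group, so they have no p-value. By the same measure over 7616 genes with a mean of at least 5 FPKM, the gene most like STK4 was OXSR1 (r = 0.998), that most like MOB1A was MTRR (r = 0.999), that most like LATS1 was RAB10 (r = 0.999) and that most like LATS2 was SPAG5 (r = 0.996). For MOB1B it was PSMG2 (r = 0.998), for SAV1 TPD52 (r = 0.995), for STK3 RPS27 (r = 0.981), for NF2 MARS (r = 0.997) and for TAOK1 NSD3 (r = 0.9996). Each of these was picked as the highest of many genes over few libraries, so they are a description only.

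Around the cascade, 52 of 58 other Hippo pathway genes were tested, in lists of other upstream kinases, NDR kinases and other MOB proteins, scaffolds and polarity proteins, RASSF proteins, negative regulators and effectors. MAP4K1, MOB3B, FRMD1, AMOTL1 and RASSF2 were below the limit of 0.5 FPKM, and FAT4 was not listed. With shPcyt2-1, 5 of the 52 rose (MAP4K3, MAP4K5, FAT1, TEAD1 and TEAD2) and 2 fell (SCRIB and RASSF3), 9.62% and 3.85% of the list, where 16.5% and 10.1% of all tested genes were called higher and lower. With shPcyt2-2, 7 rose (MAP4K3, TAOK3, MINK1, AMOTL2, FRMD6, PALS1 and YAP1) and 4 fell (RASSF5, WTIP, WWC2 and TEAD4), 13.5% and 7.69% of the list, where 7.69% and 4.74% of all tested genes were called higher and lower. All of these genes were named by their values. The median log2 fold change of the 52 was 0.02 with shPcyt2-1 and 0.07 with shPcyt2-2, beside 0.07 and 0.04 for all tested genes. In the pooled comparison 0 of the 52 passed, and 8 (15.4%) had an unadjusted p under 0.05, as did 16.7% of all tested genes.

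MAP4K3, a kinase that can phosphorylate the LATS kinases in parallel to the MST kinases, was the 1 of these 52 (1.92%) that passed with both hairpins in the same direction, where 3.09% of all tested genes were called higher with both. It was at 3.15 and 2.92 FPKM with shNT, 4.29 and 4.44 FPKM with shPcyt2-1, and 4.74 and 4.05 FPKM with shPcyt2-2. All 4 knockdown libraries stood above both shNT libraries. The log2 fold changes were 0.41 (limma adjusted p = 0.0209) and 0.42 (limma adjusted p = 0.0349). With shPcyt2-2 the call was lost in each of the 6 fits that left out 1 library and after correction for GC content and length (limma adjusted p = 0.0588), and with shPcyt2-1 it was lost without shNT replicate 2 or either shPcyt2-1 library (limma adjusted p up to 0.104).

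Among scaffolds, AMOTL2, an angiomotin that binds and holds YAP1 and is itself known as a YAP1 target, changed most of the scaffolds with shPcyt2-2 on the log2(FPKM + 1) scale. It was at 7.14 and 7.71 FPKM with shNT, 6.47 and 6.45 FPKM with shPcyt2-1, and 11.8 and 12.2 FPKM with shPcyt2-2. Only the shPcyt2-2 libraries lay above shNT, and AMOTL2 differed between the hairpins by 0.80 on the log2 scale (limma adjusted p = 0.000401). It rose with shPcyt2-2 by 0.63 (limma adjusted p = 0.00501), and it passed without each library in turn. SCRIB, a cell polarity scaffold, was at 17.8 and 25.2 FPKM with shNT and 13.8 and 16.2 FPKM with shPcyt2-1, a fall that passed narrowly (-0.48 on the log2 scale, limma adjusted p = 0.0498). The SCRIB call was lost with a pseudocount of 0.1, without the variance trend, after correction for GC content and length (-0.24, limma adjusted p = 0.181), with only the libraries compared in the fit, and without shNT replicate 2 (-0.24), shPcyt2-1 replicate 1 or either shPcyt2-2 library. Without shNT replicate 1 its value was -0.72.

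RASSF proteins bind the MST kinases, and RASSF3 passed with shPcyt2-1 and RASSF5 with shPcyt2-2. RASSF3 fell by 0.33 on the log2 scale with shPcyt2-1 (limma adjusted p = 0.0267), from 9.93 and 8.82 FPKM to 6.97 and 7.48 FPKM. RASSF5 fell by 0.43 with shPcyt2-2 (limma adjusted p = 0.0461), from 1.98 and 2.30 FPKM to 1.14 and 1.52 FPKM. WTIP, a LIM protein of the AJUBA family that inhibits the LATS kinases, fell by 0.43 with shPcyt2-2 (limma adjusted p = 0.0405), from 1.32 and 1.36 FPKM to 0.627 and 0.861 FPKM. Of the TEAD factors, TEAD2 rose with shPcyt2-1 by 0.38 (limma adjusted p = 0.0156), from 10.3 and 11.0 FPKM to 13.3 and 15.1 FPKM. TEAD4, the TEAD factor with the highest level in these cells, fell by 0.38 with shPcyt2-2 (limma adjusted p = 0.0162), from 50.8 and 53.3 FPKM to 37.4 and 42.3 FPKM. With the other hairpin RASSF3 was at 0.07, RASSF5 at -0.21, WTIP at -0.17, TEAD2 at -0.02 and TEAD4 at 0.04, and none passed. Between the hairpins RASSF3 (0.40, limma adjusted p = 0.0114), TEAD2 (-0.40, limma adjusted p = 0.0115) and TEAD4 (-0.42, limma adjusted p = 0.00431) differed. RASSF5 (-0.22, limma adjusted p = 0.196) and WTIP (-0.26, limma adjusted p = 0.12) did not. The calls against shNT varied with the settings. The calls of RASSF5 and WTIP held in 0 of 6 fits that left out 1 library. With only the libraries compared in the fit, the calls of RASSF5 and WTIP were lost (limma adjusted p = 0.061 and 0.0566). That of RASSF5 was also lost with a pseudocount of 0.1 (limma adjusted p = 0.0507). After correction for GC content and length the call of WTIP was lost (-0.36, limma adjusted p = 0.06995), and TEAD4, at 0.04 with shPcyt2-1 in the values as deposited, was called higher with that hairpin (0.19, limma adjusted p = 0.048). That of RASSF3 was lost without shNT replicate 1 or either shPcyt2-1 library, that of TEAD2 without shNT replicate 1 or shPcyt2-1 replicate 2, and that of TEAD4 without shNT replicate 2 or shPcyt2-2 replicate 1.

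**Figure D3:**
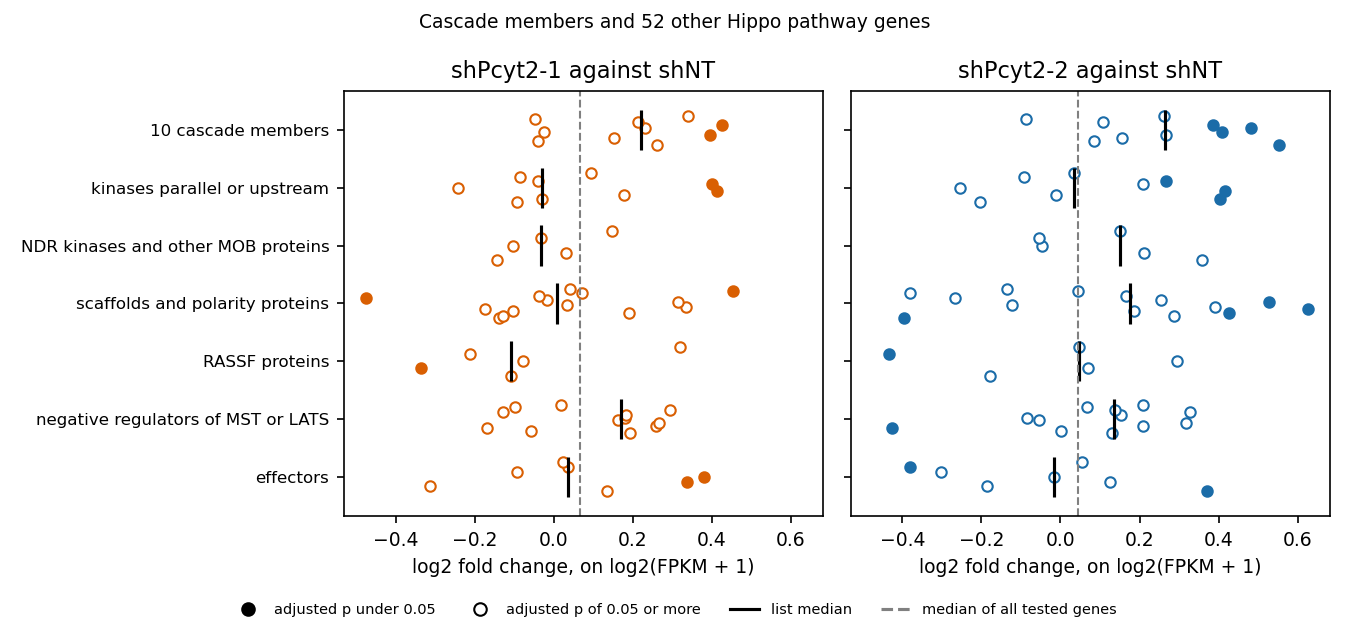
Log2 fold change on the log2(FPKM + 1) scale of the 10 cascade members and of 52 other Hippo pathway genes in 6 lists, with filled points for a limma adjusted p under 0.05, black bars for list medians and a dashed line for the median of all tested genes. The members have medians of 0.22 and 0.26, to the right of the dashed lines at 0.07 and 0.04.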

How the data were processed

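RNA-Seq was performed on 6 libraries of SW480 cells (2 each of shNT, shPcyt2-1 and shPcyt2-2). The authors deposited 1 table per library of FPKM values by Ensembl identifier, above 0 only. The unit was read from the values, and TPM over part of the genes cannot be told apart from it. The submitters' processing notes list GRCm38, mm10 and GRCh38 without a role, and the aligner and counter are not given in the sources used here. In the labels 2 library kits are named, but not the libraries each served. The study's methods name DESeq, a count test, which these values do not allow.

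Of 21539 identifiers, 115 were repeated in a library and summed. Identifiers with identical values in all 6 libraries, above 0 in at least 3 of them, were merged (999 groups). This left 19746 genes. Names, positions, transcript length and GC content came from GENCODE 29 (GRCh38) and covered 99.9% of tested genes. Genes with a mean of at least 0.5 FPKM were tested with limma 3.58.1 under R 4.3.3. Values were taken as log2(FPKM + 1), and the fit had a trend of variance on mean, Benjamini-Hochberg adjustment over all 12756 genes, a threshold of 0.05 and 3 groups (2 groups for the pooled comparison). The fits were tested on simulated data, and the outcome of that test is not given here. Precision is limited by 2 libraries per group, and no counting interval is given.

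Members and lists were chosen with earlier results of these data known. Named genes are PCYT2, the 10 members, from each other list the genes called in the same direction with both hairpins or otherwise the called gene with the largest change for each hairpin, and the gene most like each member (that for WWC1 is not reported here). Alternatives covered the pseudocount (0.1), the filter, scaling, a replicate block, the variance trend, GC content and length, the groups in the fit and leaving out each library. Figures were drawn with matplotlib 3.10.9.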

Additional observations from a re-analysis of the deposited data

Results flagged for a closer look

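The response of 2 of the 10 members (20%) differed between the hairpins by a test of the difference itself. In that comparison 27.1% of all tested genes were called in either direction, so a call was no more frequent among the members. STK4 was higher with shPcyt2-2 than with shPcyt2-1 by 0.29 on the log2(FPKM + 1) scale (limma adjusted p = 0.0323), with both shPcyt2-2 libraries above both shPcyt2-1 libraries. LATS2 was higher by 0.43 (limma adjusted p = 0.0175), again in 2 of 2 libraries. Over the alternatives, the limma adjusted p ranged from 0.00941 to 0.153 for STK4 and from 0.00999 to 0.155 for LATS2. PCYT2 itself differed between the hairpins by -0.15 (limma adjusted p = 0.309), and by -0.23 after correction for GC content and length (limma adjusted p = 0.0477).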

How the results depend on the processing

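Of 280 values of the 10 members over the alternatives other than leaving out a library, 252 kept their direction and their side of the threshold, 13 lost the call, 12 gained it and 3 reversed. Causes were not tested. With no filter on low values, 0 members passed in any comparison. Of all 19746 genes, 1831 were then called with shPcyt2-1 (3400 of 12756 as reported) and 124 with shPcyt2-2 (1585). Between the hairpins 2430 were called (3463), and 7 in the pooled comparison (1). Of the 52 other Hippo genes, 0 passed with shPcyt2-1 (7 as reported), 1 with shPcyt2-2 (11) and 6 between the hairpins (11). Without the variance trend, 1027 genes passed with shPcyt2-2 and 1 member (2 as reported) between the hairpins, where 3184 genes passed. After correction for GC content and length, 1 member passed with shPcyt2-1 (26.9% of all tested genes) and 19 other Hippo genes between the hairpins (34.7% of all tested genes). With only the libraries compared in the fit, 5 other Hippo genes passed with shPcyt2-2, where 1279 genes passed. With the mean of the hairpins from 3 groups, 2142 genes, 4 members and 5 other Hippo genes passed in the pooled comparison, and 0 genes passed there with a pseudocount of 0.1. Median-ratio scaling moved the median of all genes by -0.067 with shPcyt2-1 and turned the split of calls from 2109 higher and 1291 lower to 1422 and 1758. With shPcyt2-2 it turned 981 and 604 to 763 and 879, and between the hairpins 1648 and 1815 to 1862 and 1671.

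The labels do not say whether the replicate numbers pair the libraries. The differences of replicate 1 and 2 correlated by 0.0027, 0.062 and 0.19 between groups, which cannot settle it. With a replicate block, 5 members (STK4, LATS1, MOB1A, MOB1B and TAOK1) and 12 other Hippo genes passed with shPcyt2-1 (30.4% of all tested genes), 4 members with shPcyt2-2 (15.9% of all tested genes), 3 between the hairpins (30.3% of all tested genes) and 0 in the pooled comparison, where 0 genes passed.

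Reversed values were few. STK3 was at -0.082 with shPcyt2-2 and -0.14 pooled with the GC trend removed, and at -0.028 pooled with median-ratio scaling. TEAD4 with shPcyt2-1 was at -0.042 with median-ratio scaling. With shPcyt2-2 and the GC trend removed, RASSF3 was at -0.0042 and TEAD2 at 0.081.

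With each library left out in turn, a lone library was assumed to vary like the other groups. The number of members called changed with the library left out, as did the number of all tested genes called. The member median log2 fold change ranged from 0.15 to 0.25 with shPcyt2-1, 0.14 to 0.41 with shPcyt2-2 and -0.06 to 0.08 between the hairpins. For all tested genes the median ranged from 0.06 to 0.08, from 0.008 to 0.08 and from -0.06 to 0.02 in the same order. All genes called ranged from 1147 (without shPcyt2-1 replicate 1) to 3256, from 125 (without shPcyt2-2 replicate 1) to 1893, from 1662 (without shPcyt2-1 replicate 1) to 3785, and from 0 to 1 pooled. The other Hippo genes called ranged from 1 to 8, from 1 to 6 and from 4 to 14. Log2 fold changes that changed sign ranged from -0.20 to 0.12 for STK3, -0.13 to 0.081 for LATS2 and -0.11 to 0.0099 for WWC1 with shPcyt2-1. With shPcyt2-2 they ranged from -0.078 to 0.25 for STK3, -0.0069 to 0.15 for RASSF3 and -0.055 to 0.023 for TEAD2. Between the hairpins they ranged from -0.052 to 0.059 for SAV1, -0.13 to 0.055 for MOB1B, -0.26 to 0.10 for TAOK1 and -0.089 to 0.097 for MAP4K3, and pooled from -0.14 to 0.19 for STK3.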
